A study of Mus musculus with 12 samples.

Results

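MHC class I molecules carry peptides from inside a cell to its surface, and the 9 genes described here make, fill or switch on those molecules. They were chosen by name, as the rows of the expression table with the symbols B2m, H2-K1, H2-D1, H2-T23, Tap1, Tap2, Tapbp, Erap1 and Nlrc5, which are 9 of the 54146 genes in the table. A class I molecule pairs a polymorphic heavy chain, such as the products of H2-K1 and H2-D1, with the invariant light chain beta-2-microglobulin from B2m. Peptides cut in the cytosol by the proteasome are pumped into the endoplasmic reticulum by the transporter TAP, a pair of Tap1 and Tap2 chains, trimmed by the aminopeptidase of Erap1 and loaded with the help of tapasin from Tapbp. H2-T23 encodes the class Ib chain Qa-1, which displays leader peptides of other class I chains to NK cell receptors, and Nlrc5 encodes a transactivator of class I genes. Interferon-gamma is the best known inducer of the set, and CD8+ T cells and NK cells both read class I on tumor cells.

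The libraries came from D2A1 cells, a mouse mammary carcinoma line, injected into the tail vein and recovered by sorting from mouse lung. They bore a doxycycline-inducible histone H2B-GFP and were stained with CellVue Claret, a membrane dye that dividing cells dilute. Dormant libraries were made from GFP+ cells that had kept the dye, and growing libraries from GFP+ cells that had lost it. Hosts were WT (flox controls without Cre by the study's methods) or Tgfbr2 KO mice, in which the type II receptor for TGF-beta is deleted under the Lysozyme 2 promoter (LysM-Cre), so that host myeloid cells lose it while the injected line does not. There were 3 libraries in each of the 4 groups, which are called dormant WT, growing WT, dormant KO and growing KO. Every labelled WT library bore the name batch 1 and every labelled KO library batch 2, so host and batch cannot be told apart among them, whereas dormant and growing libraries of 1 host share a batch. The table also holds 6 columns whose names read WT of batch 2, which matched no labelled sample and were not used here. Neither the host strain nor the age is given in the labels, though the study's methods state the age of its mice and that they were female. The injected cells are 1 line. Values are TPM, a transcript level divided by length and set to the same total in each library, so sequencing depth is unknown. An SD given here is the spread between 3 libraries. An SE comes from a fit to all 12 libraries, which gives each gene 1 spread for all groups. The study asked which genes differ between dormant and proliferating tumor cells and how loss of Tgfbr2 in myeloid cells alters them.

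The dormant KO libraries stood apart from the other 9 in their cell type markers. The summed TPM of 8 markers of alveolar type 2 cells was 40194 to 42484 there, against 77.5 to 141 in dormant WT, 53.5 to 97.3 in growing WT and 462 to 470.2 in growing KO, and that of 8 mesothelium markers was 11654 to 13267 against at most 489.8 elsewhere. Markers of leukocytes summed to 2242 to 2581 TPM in dormant KO, 733 to 1058 in dormant WT, 123 to 138 in growing KO and 13.4 to 46.8 in growing WT. The macrophage sum had the same order, at 3155 to 3297, 1197 to 1738, 134 to 168 and 30.7 to 74.5, and was mostly Lyz2, with a mean of 2898 TPM in dormant KO and 1080 in dormant WT. Of its other genes, C1qa (129 against 219 TPM), Mrc1 (12.5 against 25.2), Marco and Adgre1 had dormant KO means below those of dormant WT, whereas Cd68 (161 against 78.5), Csf1r (3.96 against 1.24) and Fcgr1 (8.87 against 6.2) had higher ones. Endothelial markers summed to 773 to 876 TPM in dormant KO and to at most 127 elsewhere, alveolar type 1 markers to 1615 to 2056 in dormant KO and to at most 394 elsewhere, and T and NK cell markers to 141 to 234 in dormant KO and to at most 20.0 elsewhere. Dormant KO means were below those of dormant WT for Ptprc (24.6 against 35.5 TPM) and Laptm5 (23.4 against 25.4) among leukocyte markers. The same held for Abca3 (1.67 against 5.37) of alveolar type 2 and Aqp5 (14.5 against 33.1) of alveolar type 1. The other genes of these 3 lists had higher dormant KO means. Most of the alveolar type 2 sum in dormant KO was Sftpc (mean 37860 TPM), and most of the mesothelium sum was Rarres2 (11440). The sum of the list for mammary epithelium and the line was 1500 to 1927 TPM in dormant KO and 29726 to 40512 elsewhere, most of it Spp1 (osteopontin), whose mean was 1390 ± 140 (SD, n = 3) TPM in dormant KO and 35300 ± 4058, 33170 ± 1192 and 31140 ± 1916 in dormant WT, growing WT and growing KO. Its other genes were mixed: against dormant WT, Krt8 was lower in dormant KO (-1.62, limma adjusted p 0.00541), Krt7 had a mean of 41.8 TPM against 0, Epcam 3.01 against 0.03, Krt18 differed by 0.09 (adjusted p 0.838), and the basal keratins Krt14 and Krt5 were at 0 in all libraries outside dormant KO. In bulk samples, fewer cells of a type and less RNA per cell cannot be told apart. Nearly every nucleated cell makes class I, so these markers are given beside the results, and their part in the differences was not tested. The growing libraries differed in these sums too: all 7 lists of other cell types were higher in growing KO than in growing WT without overlap, with mesothelium at 261 to 489.8 against 22.6 to 36.7 TPM and endothelium at 42.9 to 49.7 against 9.01 to 13.9.

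**Figure D1:**
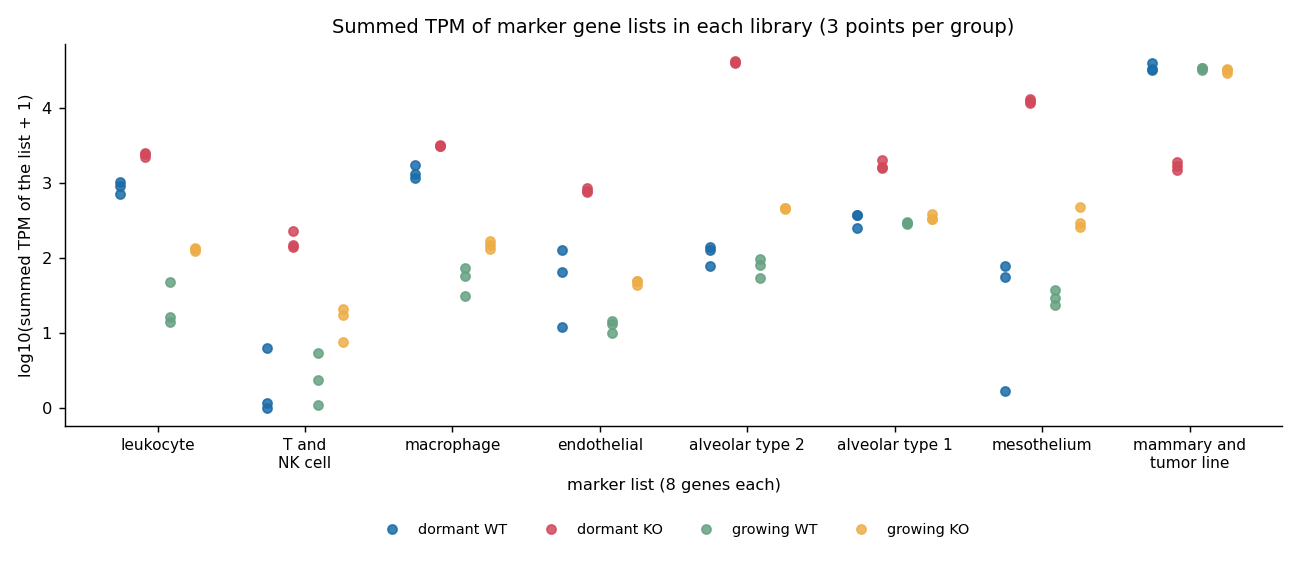
Summed TPM of 8 marker lists of 8 genes each, on the vertical axis as log10(sum + 1), for each of the 12 libraries. The 3 dormant KO libraries lie highest for all 7 lists of other cell types and lowest for the mammary and tumor line list, whose sum is mostly Spp1.

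The 3 most abundant members, B2m, H2-D1 and H2-K1, have promoters in which the transcription factors of class I genes are known to bind. They are shown so that the shared blocks can be compared, as the 250 bases before the RefSeq start on GRCm38.p6, 5′ to 3′ on the strand of the gene. Capitals mark matches to any of the 5 motifs spelled out after the sequences.
B2m (chr2:122147437-122147686, plus strand): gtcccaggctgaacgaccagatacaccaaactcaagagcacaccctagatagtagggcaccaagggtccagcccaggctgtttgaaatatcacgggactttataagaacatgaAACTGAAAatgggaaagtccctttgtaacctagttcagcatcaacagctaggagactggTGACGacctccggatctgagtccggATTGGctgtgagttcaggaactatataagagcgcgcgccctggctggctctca
H2-K1 (chr17:34000348-34000597, minus strand): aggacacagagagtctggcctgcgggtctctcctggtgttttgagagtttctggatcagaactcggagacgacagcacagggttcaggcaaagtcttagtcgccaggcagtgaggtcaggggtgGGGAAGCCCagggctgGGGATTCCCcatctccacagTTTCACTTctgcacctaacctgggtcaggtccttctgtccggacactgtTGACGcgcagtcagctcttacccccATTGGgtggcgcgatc
H2-D1 (chr17:35262844-35263093, plus strand): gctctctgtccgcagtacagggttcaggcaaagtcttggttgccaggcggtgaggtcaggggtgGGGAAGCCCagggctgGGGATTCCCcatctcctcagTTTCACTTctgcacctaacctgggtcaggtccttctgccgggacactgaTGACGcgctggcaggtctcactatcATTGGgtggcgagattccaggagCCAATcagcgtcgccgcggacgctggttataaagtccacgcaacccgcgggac

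The motifs were searched on both strands of 32851 promoter windows of 250 bases. The kappa-B-like GGGNNTCCC, the form of an NF-kappa-B site in class I enhancers, was in H2-K1 and H2-D1, with 2 matches each, and in 4.76% of all windows. The interferon response form TTTCNNTT was in B2m, H2-K1, H2-D1 and H2-T23 and in 21.3% of windows. The cAMP response element core TGACG (17.8%) was in B2m, H2-K1, H2-D1 and Tap1, and the CCAAT box (33.9%) in all members with an entry except Erap1. The motif TTCNNNGAA (7.02%) was in none of the 7 members with an entry. Tap2 and Nlrc5 had no entry. The windows of H2-K1 and H2-D1 matched over a local alignment of 177 columns, of which 161 (91.0%) were identical and which held the kappa-B, TTTCNNTT, TGACG and CCAAT blocks in the same order. A match describes these letters only and is not a measured site. Other spellings of these sites were not searched, so a window without a match may still hold a site.

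On GRCm38, 6 of the 9 genes lie on chromosome 17: Tapbp (33915899 to 33929292, plus strand), H2-K1 (33996017 to 34000347, minus), Tap1 (34187553 to 34197225, plus), Tap2 (34203527 to 34216321, plus), H2-D1 (35262730 to 35267499, plus, a span that begins before the RefSeq start used for its promoter) and H2-T23 (36029773 to 36032855, minus). B2m is on chromosome 2 (122147686 to 122153083, plus), Erap1 on chromosome 13 (74639568 to 74693201, plus) and Nlrc5 on chromosome 8 (94434356 to 94527272, plus). In the annotation, Tap1 overlaps Psmb9 on the opposite strand, and B2m, H2-T23, Tap2, Tapbp, Erap1 and Nlrc5 also overlap a gene on the opposite strand. Whether the counting used strand is not stated. Heavy chains resemble each other: of the 31-base words in the transcripts of each gene, 22.8% in H2-K1, 26.7% in H2-D1 and 24.4% in H2-T23 also occur in another gene, against 0% in B2m and Nlrc5 and at most 4.62% in the remaining 4. The reference carries the C57BL/6 alleles and D2A1 is of BALB/c origin, so the levels of H2-K1, H2-D1 and H2-T23 are uncertain as to which copy or allele they count, and the effect on the levels was not tested.

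The order of the members was nearly the same in all 4 groups. B2m was the most abundant, with rank 26 among all genes of the table in dormant WT, 18 in dormant KO, 17 in growing WT and 18 in growing KO. H2-D1, H2-K1, H2-T23 and Tapbp followed in that order in every group, and neighbours among these 5 did not overlap in any group. Below Tapbp the order was not settled: Tap1 overlapped Tapbp in dormant WT, and among Tap1, Tap2, Erap1 and Nlrc5 most neighbours overlapped. All 9 members passed the filter on low values (at least 1 TPM in at least 3 libraries). Together they held 0.619% ± 0.164 (SD, n = 3) of all TPM in dormant WT, 0.866% ± 0.0204 in dormant KO, 0.659% ± 0.0135 in growing WT and 0.680% ± 0.0482 in growing KO.

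**Figure D2:**
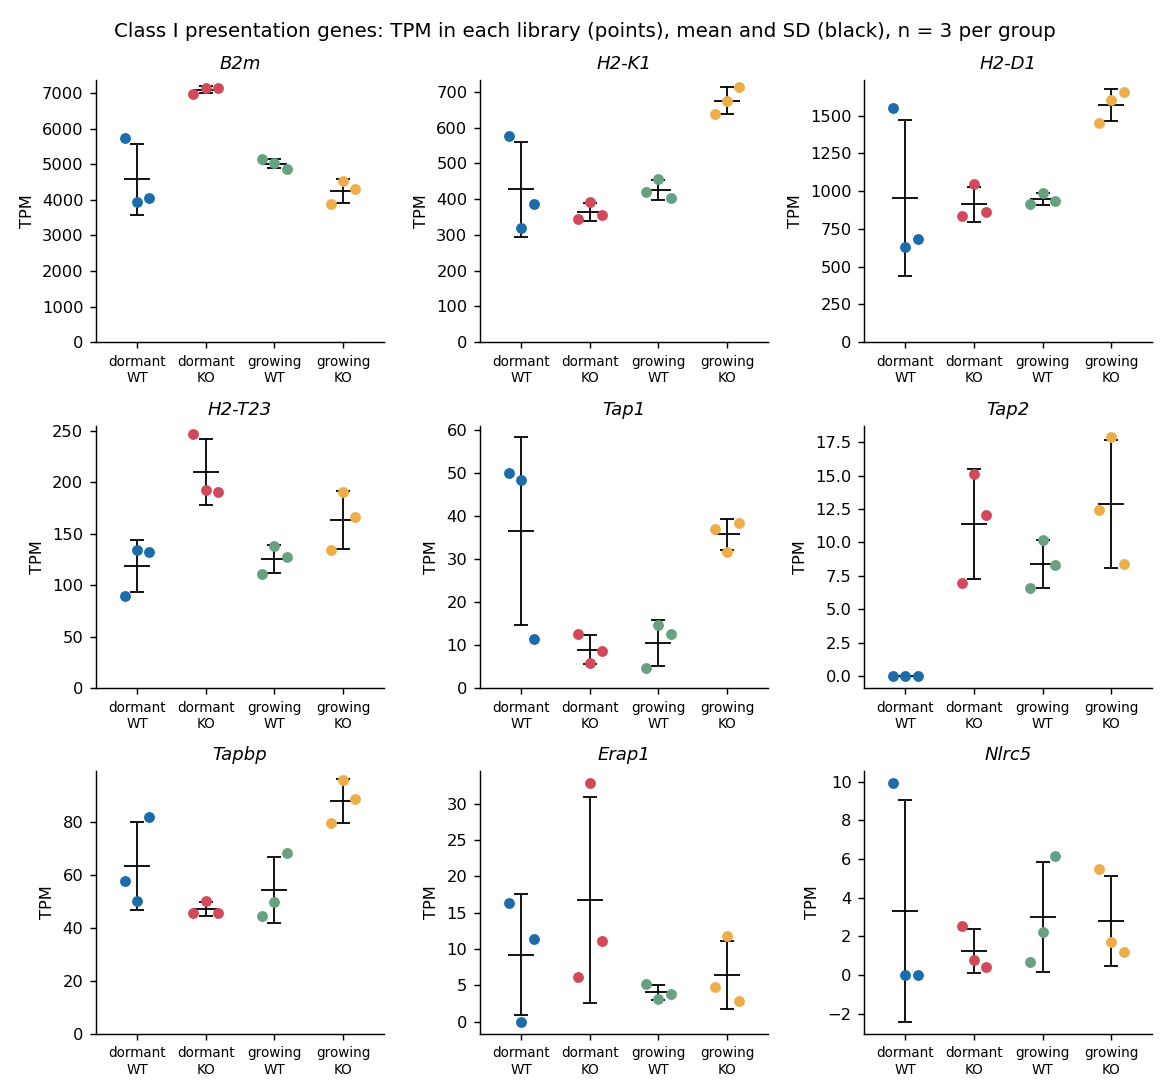
TPM of each member in each library, with a panel per gene and its own linear axis; points are libraries and black bars give the mean and SD of 3. B2m is highest in dormant KO, H2-K1, H2-D1 and Tapbp in growing KO are above growing WT in every library, and Tap2 is at or next to 0 in dormant WT.

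Differences were tested with limma on log2(TPM + 1) over 13002 genes, and a call required an adjusted p (Benjamini-Hochberg) of at most 0.05 together with a difference of at least 1. Among the dormant libraries, 1 of 9 members was called between hosts, Tap2 higher in KO, where 22.3% of all tested genes were called. By the adjusted p alone there were 3 (24% of all genes), B2m, H2-T23 and Tap2, all higher in KO. The same 3 were the members whose groups did not overlap, against 31.5% of all genes. The shares of members were thus not far from those of all genes, and their median difference was 0.05 against 0.17 over all genes.

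In dormant cells B2m had 5723, 3943 and 4061 TPM with WT hosts and 6977, 7145 and 7153 TPM with KO hosts. Growing cells gave 5149, 5020 and 4877 TPM with WT hosts and 3889, 4539 and 4301 TPM with KO hosts. The dormant KO libraries thus lay above all other libraries, and the growing KO libraries below the growing WT ones. Dormant KO exceeded dormant WT by 0.65 ± 0.115 (SE) on the log2 scale, with an adjusted p of 0.00151 in limma, in 3 of 3 libraries. Every alternative setting kept the sign, with differences from 0.56 to 1.17 and adjusted p from 3.13e-06 to 0.0467. Between growing hosts the difference was -0.24 ± 0.115 (limma adjusted p 0.707), and after quantile normalization the growing groups overlapped, with a difference of -0.0746.

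The classical heavy chains followed another pattern. In dormant cells H2-K1 had 576, 320 and 386 TPM with WT hosts and 344, 393 and 355 TPM with KO hosts. With growing cells the figures were 420, 457 and 402 TPM with WT hosts and 637, 674 and 713 TPM with KO hosts. The growing KO libraries were the highest of all 12, and the dormant groups overlapped. In dormant cells H2-D1 had 1553, 629 and 685 TPM with WT hosts and 834, 1045 and 860 TPM with KO hosts. Growing cells had 915, 991 and 933 TPM with WT hosts and 1454, 1604 and 1657 TPM with KO hosts. For both genes replicate 1 of dormant WT was well above its fellows, and for H2-D1 it reached the growing KO range. In the dormant comparison of hosts, limma gave -0.19 ± 0.192 (adjusted p 0.532) for H2-K1 and 0.05 ± 0.267 (adjusted p 0.924) for H2-D1. The H2-K1 difference turned to 0.33 under median-ratio scaling, and the H2-D1 difference depended on both the scale and that library, with 0.57 (adjusted p 0.0849) under median-ratio scaling and 0.47 (adjusted p 0.0119) without it.

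In growing cells, no member was called between hosts with limma, where 0.977% of all genes were called and 1.05% passed on the adjusted p alone. At an unadjusted p below 0.05 (7.53% of all genes) there were 4 members, H2-K1 (0.66 ± 0.192, limma adjusted p 0.217), H2-D1 (0.73 ± 0.267, adjusted p 0.432), Tap1 (1.80 ± 0.630, adjusted p 0.391) and Tapbp (0.71 ± 0.303, adjusted p 0.598). In all 4 every KO library was above every WT library. With B2m, which was lower in every KO library, 5 of 9 members had groups that did not overlap, against 23.9% of all genes. The median difference of the members was 0.52 against 0.02 over all genes. Over the deposited, median-ratio and quantile scales H2-K1 ran from 0.63 to 0.66 and H2-D1 from 0.73 to 0.78, whereas B2m overlapped after quantile normalization. The spread assumed for the libraries mattered too. When limma was fitted to the growing libraries alone, H2-K1 and H2-D1 had adjusted p of 0.0147 and 0.0103, and with weights that give uneven libraries less influence H2-K1, H2-D1, B2m and Tap1 had 0.00157, 0.00211, 0.0306 and 0.0265, although Tap1 alone also differed by at least 1. Host and batch cannot be told apart in these values, and the part of the higher marker sums of other cell types in growing KO was not tested.

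The ratio of light to heavy chain is free of any single scaling factor applied to a library. It was chosen after the data were seen, as B2m TPM over the sum of H2-K1 and H2-D1 TPM within a library. Its mean was 3.55 ± 0.765 (SD, n = 3) in dormant WT, 5.59 ± 0.542 in dormant KO, 3.66 ± 0.194 in growing WT and 1.89 ± 0.0925 in growing KO. The dormant KO range, 4.97 to 5.93, lay above the dormant WT range, 2.69 to 4.16, and the growing KO range, 1.82 to 1.99, below the growing WT range, 3.47 to 3.86. The ratio of KO to WT means was thus 1.58 in dormant and 0.517 in growing libraries, and between states it was 2.96 in KO hosts and 0.969 in WT hosts. Each of the 3 separated comparisons had an exact permutation p of 0.1 (two-sided), the smallest that 3 against 3 allows, so the design cannot pass 0.05; dormant and growing WT overlapped (exact permutation p 0.9). Leaving out any 1 library kept the order, with 1.41 to 1.73 in dormant and 0.502 to 0.531 in growing libraries for KO over WT. Quantile normalization, which reshapes the values within a library, gave host ratios of 1.56 in dormant and 0.571 in growing libraries, but the dormant hosts then overlapped (3.54 to 4.73 in KO and 1.95 to 3.56 in WT) and the mean of dormant KO, 4.27, was no longer above that of growing WT, 4.28. It moved the ratios between states to 1.75 in KO hosts and 0.640 in WT hosts, where dormant WT lay below growing WT without overlap. The balance between H2-D1 and H2-K1 varied less, with mean ratios of 2.15 and 2.5 in dormant WT and KO and of 2.22 and 2.33 in growing WT and KO, and the hosts overlapped in both states. The WT states overlapped too, whereas dormant KO (2.42 to 2.66) lay above growing KO (2.28 to 2.38), with an exact permutation p of 0.1.

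**Figure D3:**
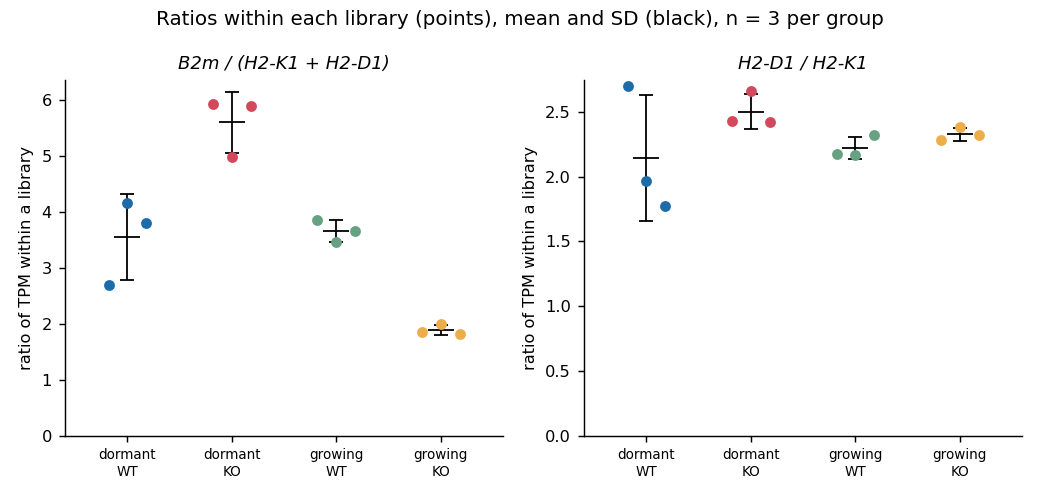
Left, B2m TPM over the sum of H2-K1 and H2-D1 TPM within each library; right, H2-D1 over H2-K1. Points are libraries and black bars the mean and SD of 3; on the left the 2 WT groups overlap, dormant KO lies above them and growing KO below, whereas on the right the hosts overlap in both states.

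H2-T23, the nonclassical chain, resembled B2m more than the classical chains in the dormant comparison. In dormant cells it measured 89.4, 134 and 132 TPM with WT hosts and 247, 193 and 191 TPM with KO hosts, so that all dormant KO libraries were higher. Among growing cells it measured 111, 138 and 128 TPM with WT hosts and 134, 190 and 166 TPM with KO hosts, where the groups overlapped. The difference between dormant hosts was 0.83 ± 0.245 (limma adjusted p 0.0279), under the size needed for a call on the deposited scale. Over the alternatives its adjusted p ran from 0.00325 to 0.13.

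The TAP transporter needs both of its chains. In dormant cells Tap2 had 0, 0 and 0.02 TPM with WT hosts and 6.96, 15.1 and 12.1 TPM with KO hosts. With growing cells the figures were 6.62, 10.2 and 8.35 TPM with WT hosts and 12.4, 17.9 and 8.36 TPM with KO hosts. Dormant WT was thus at or next to 0 while the other groups overlapped one another. The fitted difference of dormant KO from dormant WT was 3.56 ± 0.504 (limma adjusted p 0.000353) and that of dormant WT from growing WT -3.20 ± 0.504 (adjusted p 0.00299), the 2 calls that stood under every alternative. Their size depends on the pseudocount, running from 1.68 to 6.69 and from -6.30 to -1.41, and no fold is given against values this close to 0. The dormant WT libraries also had the fewest genes above 0, 11325 to 13242 against 13406 to 15315 elsewhere. Of 5783 genes with at least 5 TPM in every growing WT library, 142 (2.46%) were under 0.1 TPM in every dormant WT library, as Tap2 was, against 36 (0.623%) in dormant KO and 9 (0.156%) in growing KO. The part of this lower detection in the Tap2 result was not tested.

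Between dormant hosts and between WT states, Tap1 had the opposite sign from Tap2. Dormant cells had 50.0, 48.4 and 11.3 TPM with WT hosts and 12.5, 5.71 and 8.62 TPM with KO hosts. Growing cells had 4.53, 14.7 and 12.5 TPM with WT hosts and 37.1, 31.8 and 38.4 TPM with KO hosts. Dormant WT was split, with 2 libraries above the growing KO range and replicate 3 within the range of growing WT. Between dormant hosts the KO value differed by -1.72 ± 0.630 (limma adjusted p 0.0707), and between WT states the dormant value by 1.58 ± 0.630 (adjusted p 0.152). Replicate 3 decided both: without it Tap1 was called, at -2.39 (adjusted p 0.00671) and 2.25 (adjusted p 0.0212). In dormant WT, Tap1 was thus present where Tap2 was at or next to 0. Reads in the overlap of Tap1 with Psmb9 cannot be assigned without strand, and Psmb9 itself, an immunoproteasome subunit, had 40.0, 105 and 102 TPM with dormant cells of WT hosts and 128, 134 and 138 TPM with those of KO hosts. In growing cells Psmb9 had 60.3, 63.0 and 85.5 TPM with WT hosts and 134, 104 and 131 TPM with KO hosts, higher in every KO library as Tap1 was, with a difference of 0.82 (limma adjusted p 0.629).

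The loading and trimming genes and the transactivator gave no call. In dormant cells Tapbp had 57.8, 50.0 and 82.0 TPM with WT hosts and 45.7, 50.2 and 45.5 TPM with KO hosts. Among growing cells it measured 44.6, 49.6 and 68.3 TPM with WT hosts and 79.3, 95.9 and 88.7 TPM with KO hosts, the highest group. Erap1 in dormant cells read 16.3, 0 and 11.4 TPM (WT hosts) and 6.18, 32.8 and 11.1 TPM (KO hosts), so a library without any signal sat beside others above 10. Growing cells gave Erap1 values of 5.18, 3.16 and 3.86 TPM (WT hosts) and 4.76, 11.7 and 2.83 TPM (KO hosts). Its groups overlapped in all 4 comparisons, and its smallest limma adjusted p among them was 0.42. Nlrc5 was the least abundant member outside dormant WT. It read 2.52, 0.80 and 0.42 TPM in dormant KO, and its growing values were 0.66, 2.22 and 6.18 TPM (WT hosts) and 5.47, 1.74 and 1.19 TPM (KO hosts). In dormant WT it was at 9.91 TPM in replicate 1 and at 0.01 in both others. Its groups overlapped in all 4 comparisons too (smallest limma adjusted p 0.659).

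**Figure D4:**
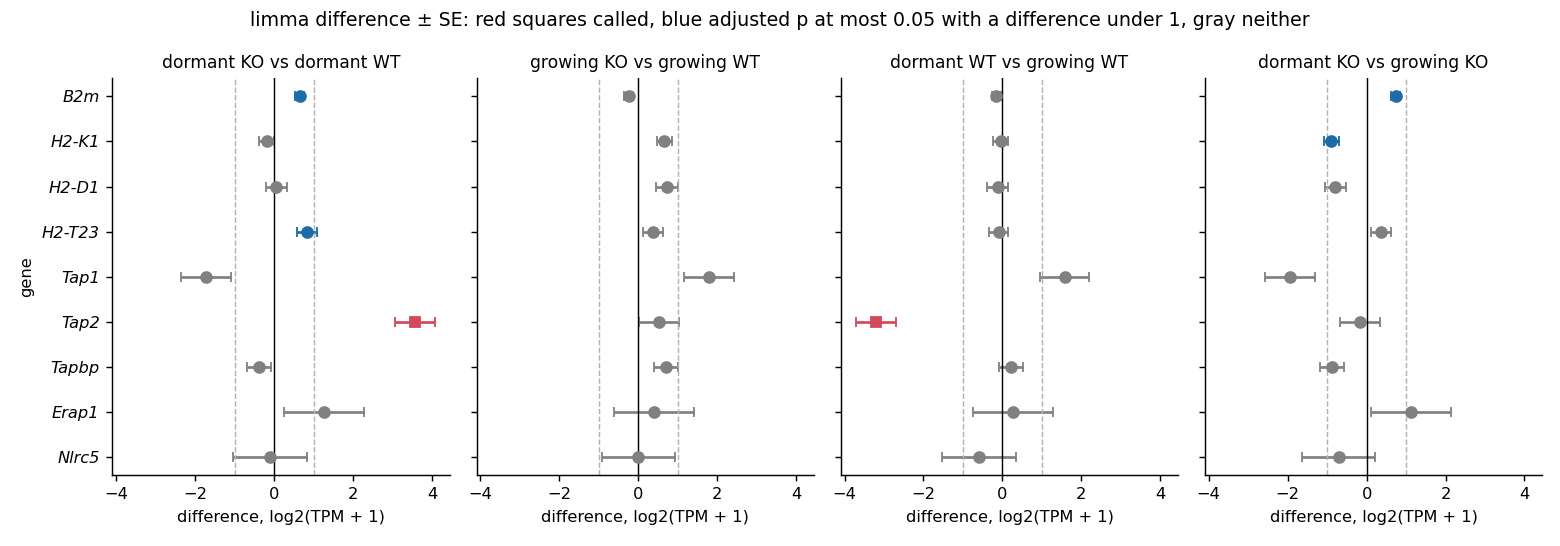
Difference ± SE of each member on the log2(TPM + 1) scale in 4 comparisons; the solid line is 0 and dashed lines mark 1 and -1. Tap2 is the only called member, in the comparison of dormant hosts (3.56) and in that of WT states (-3.20), and gray points did not pass.

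Between states within 1 host, and so within 1 batch, few members differed in WT as deposited. Dormant WT against growing WT had 1 call, Tap2, where 7.51% of all genes were called, and it was also the single member by the adjusted p alone (8.44% of all genes) and the single one without overlap (26.6% of all genes). The median difference was -0.10 against -0.35 over all genes. B2m differed by -0.15 (limma adjusted p 0.456), but by -0.57 (adjusted p 0.0125) after quantile normalization and by -0.33 (adjusted p 0.00543) without dormant WT replicate 1. As deposited, H2-K1 differed by -0.04 (adjusted p 0.951), H2-D1 by -0.11 (adjusted p 0.856) and H2-T23 by -0.10 (adjusted p 0.865). With standard errors of 0.115 to 0.267, adjusted p-values above 0.05 do not show that the levels were equal.

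In KO hosts no member was called between states at a limma adjusted p of at most 0.05 and a difference of 1, where 17.8% of all genes were called. At an unadjusted p below 0.05 there were 5 (30.8% of all genes). By the adjusted p alone there were 2 (19.2% of all genes): B2m was higher in dormant KO by 0.74 ± 0.115 (adjusted p 0.00086) and H2-K1 lower by -0.89 ± 0.192 (adjusted p 0.00668). Groups did not overlap for 6 members, with B2m and H2-T23 higher and H2-K1, H2-D1, Tap1 and Tapbp lower in dormant KO, against 44.7% of all genes. H2-D1 differed by -0.79 (adjusted p 0.0614), Tap1 by -1.94 (adjusted p 0.0521) and Tapbp by -0.88 (adjusted p 0.0639). In the limma fit of the KO libraries alone these 3 had adjusted p of 0.0041, 0.00932 and 0.0128. The scale moves these values, since the median over all genes was -0.32 as deposited and 0.09 after median-ratio scaling: H2-K1 then differed by -0.30 (adjusted p up to 0.262 over all settings) and B2m by 1.34, while B2m differed by 0.13 after quantile normalization (adjusted p up to 0.506). This comparison rests on the dormant KO libraries, with their raised markers of other cell types.

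Whether the difference between states itself changed with the host was tested as an interaction, in which the WT difference is subtracted from the KO difference. It called 2 members, Tap1 (-3.52 ± 0.890, limma adjusted p 0.0275) and Tap2 (3.04 ± 0.713, adjusted p 0.019), in opposite directions, where 10.1% of all genes were called. These calls were not stable: of 20 alternatives 10 kept that of Tap1 and 13 that of Tap2 (adjusted p of up to 0.073 and 0.121), array weights left neither, and neither stood without dormant KO replicate 3, growing KO replicate 3 or growing WT replicate 3. By the adjusted p alone B2m joined them (0.90 ± 0.163, adjusted p 0.00508 and up to 0.022 over the alternatives), against 10.4% of all genes. H2-K1 (-0.85 ± 0.272, adjusted p 0.0745) and H2-D1 (-0.68 ± 0.378, adjusted p 0.332) had the opposite sign from B2m. The 5 comparisons share groups, and host is one with batch in the interaction too.

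The members did not move as 1 block across the 12 libraries. As a description, Pearson's r on log2(TPM + 1) was 0.94 between H2-K1 and H2-D1, which share sequence, and 0.72 between H2-K1 and Tapbp, but -0.39 between B2m and H2-K1, -0.65 between B2m and Tapbp and -0.35 between Tap1 and Tap2. The 12 points fall in 4 groups and share the library as a source. The mean profile of the members was closest to H2-D1 (r = 0.87) and farthest from B2m (r = 0.20). Outside the list, the 5 tested genes most like that profile were Ltbr (r = 0.943), the lymphotoxin beta receptor, RP23-329M7.3 (0.913), Ift52 (0.903), Aco1 (0.903) and Arfgap3 (0.902). Ltbr had mean TPM of 3.11 in dormant WT, 5.14 in dormant KO, 5.01 in growing WT and 8.57 in growing KO.

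Of 5 chaperones that serve class I chains in the endoplasmic reticulum, 4 fell in dormant KO against dormant WT, where 22.3% of all genes were called: calnexin (Canx, -1.82), calreticulin (Calr, -1.34), ERp57 (Pdia3, -1.07) and BiP (Hspa5, -1.04). The fifth, Tapbpl, differed by 0.15 (limma adjusted p 0.958). The same 4 genes were called lower than in growing KO (Hspa5 at -1.81 and Calr at -1.25; 17.8% of all genes) and in the interaction (Canx at -2.22 and Pdia3 at -1.62; 10.1% of all genes). Calr had 223, 238 and 215 TPM with dormant cells of WT hosts and 79.7, 109 and 79.9 TPM with those of KO hosts. Its growing values were 214, 204 and 196 TPM (WT hosts) and 185, 255 and 200.4 TPM (KO hosts), so dormant KO was the low group. Median-ratio scaling left 1 of these calls against dormant WT (Canx), 1 against growing KO (Hspa5) and 2 in the interaction (Canx and Pdia3), so the number of calls depends on the scale. Without dormant KO replicate 1 there were 2 calls in each of the first 2 comparisons. No chaperone was called between growing hosts (1 at an unadjusted p below 0.05 in limma), and Canx alone was called between WT states (1.22, higher in dormant), though not without dormant WT replicate 2 or growing WT replicate 1 or 2. Over all genes 0.977% were called between growing hosts, where 7.53% had such a p, and 7.51% were called between WT states.

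Among the immunoproteasome subunits, which cut class I peptides, and the PA28 activator that feeds them, Psmb10 and Psme1 were low in dormant WT. Psmb10 had 155, 172 and 73.0 TPM there and 277, 307 and 282 TPM in dormant KO. Growing cells had more of it, with 377, 342 and 329 TPM (WT hosts) and 391, 481 and 393 TPM (KO hosts). Psme1, a PA28 subunit, read 280, 82.0 and 136 TPM with dormant cells of WT hosts and 304, 298 and 393 TPM with those of KO hosts. Both were called between dormant hosts (1.20 and 1.16, KO above WT) and between WT states (-1.47 and -1.37, dormant below growing), but neither stood in the fits of only the groups compared, and without dormant WT replicate 3 neither was called between dormant hosts. Psmb8 was lower in dormant KO than in growing KO (-1.27). The list had 5 genes, and 22.3%, 7.51% and 17.8% of all genes were called in these 3 comparisons. No subunit was called between growing hosts (0.977% of all genes), and 2 had an unadjusted p below 0.05 in limma (7.53% of all genes).

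**Figure D5:**
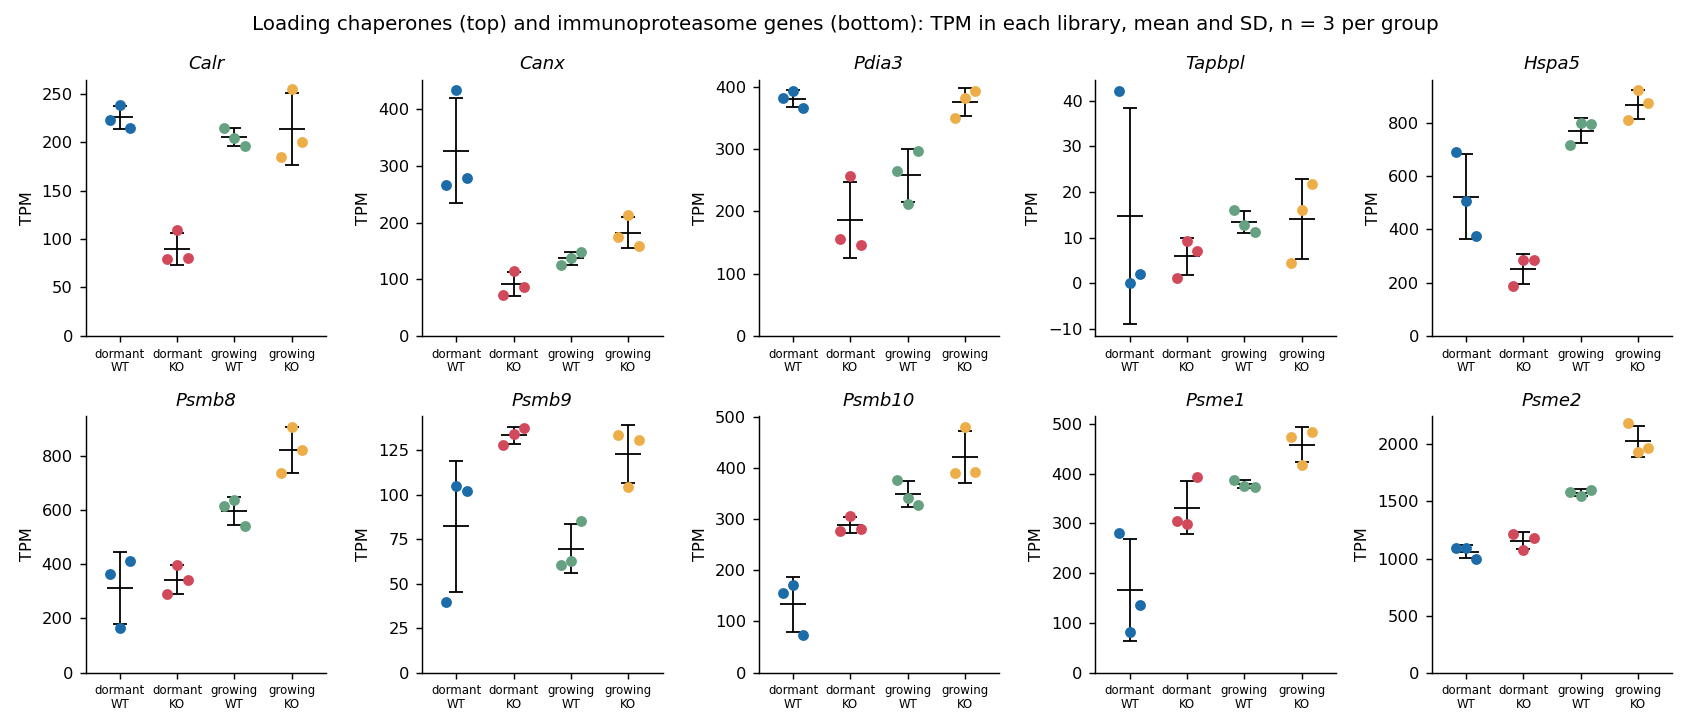
TPM of 5 loading chaperones (top) and 5 immunoproteasome genes (bottom) in each library, with linear axes; points are libraries and black bars the mean and SD of 3. Calr, Canx, Pdia3 and Hspa5 are lowest in dormant KO, and Psmb10 and Psme1 are lowest in dormant WT.

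Other heavy chains behaved unevenly. Of 14 names, 13 were in the table and 11 were tested. H2-K2 (-1.80) and H2-Q2 (-1.48) fell in dormant KO against dormant WT, H2-Q4 (-1.39) was lower in dormant KO than in growing KO, and none was called in the remaining 3 tests, so that no test exceeded the share called over all genes. With a pseudocount of 5 the first 2 were not called, and H2-Q4 was not called under either rescaling. Of the 5 class I-like genes, none was called other than Cd1d2, a lipid-presenting chain with 3.10, 6.78 and 4.02 TPM in dormant KO and no more than 0.14 in every other library. Cd1d2 passed the filter on low values through dormant KO alone, so its calls are not counted as results. Of the 5 peptidases and the 15 tested genes of interferon signaling, including Irf1 and both chains of the interferon-gamma receptor, 0 were called in any of the 5 limma tests. Over all genes 22.3% were called between dormant hosts, 0.977% between growing hosts, 7.51% between WT states, 17.8% between KO states and 10.1% in the interaction. At most 1 peptidase and 2 signaling genes had an unadjusted p below 0.05 in any test. Of all 13002 genes, 4591, 979, 3113, 4011 and 3031 had such a p, with the tests in the same order.

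Of the 12 interferon targets, Cxcl10 (1.95) was called higher and Iigp1 (-2.64) and Irgm1 (-1.84) lower in dormant KO than in dormant WT, a share near the 22.3% of all genes. Ifit1 (-4.21) and Cxcl10 (-2.28) were lower in dormant WT than in growing WT. Ifit1 (-3.08), Gbp3 (-1.97) and Irgm1 (-1.71) were lower in dormant KO than in growing KO, and Irgm1 (-2.49) was called in the interaction, against 7.51%, 17.8% and 10.1% of all genes in these 3 tests, so the counts are no result about the targets. None was called between growing hosts (0.977% of all genes). There, 2 had an unadjusted p below 0.05 in limma (7.53% of all genes), and the median difference was 0.60 against 0.02 over all genes. The called genes went both ways between dormant hosts, where 0 were called in the fit of only those groups. After median-ratio scaling, none of the 3 was called between KO states.

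Class II genes, which professional antigen-presenting cells use, had another order of groups. Of 6 tested, 4 were higher in dormant WT than in growing WT, with H2-Aa at 4.73, Cd74 (the invariant chain) at 4.52 and H2-Ab1 at 4.28, and the same 4 were higher in growing KO than in growing WT, with H2-Aa at 2.44. Between states in KO hosts 5 were called, led by H2-Aa (3.64), H2-DMa (3.62) and H2-Eb1 (3.42), and between dormant hosts 3, led by H2-DMa (2.85), but 0 with array weights. In the interaction Cd74 was called lower (-1.58). Over all genes 7.51%, 0.977%, 17.8%, 22.3% and 10.1% were called in these tests, in the order given. H2-Aa lay in separate ranges in the 4 groups, from 7.65, 14 and 15.2 TPM in growing WT through 62.8, 89.3 and 57.4 TPM (growing, KO hosts) and 518, 323 and 235 TPM (dormant, WT hosts) to 763, 883 and 958 TPM (dormant, KO hosts). Their order was that of the leukocyte and macrophage marker sums, whereas B2m, H2-K1 and H2-D1 did not follow it. B2m and those sums were both highest in dormant KO, and the part of other cell types in either class was not tested.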

How the data were processed

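Poly(A) RNA was sequenced from 12 libraries of sorted D2A1 cells. The labels name an RNeasy extraction with DNase I and a TruSeq mRNA kit, whereas the study's methods name Smart-seq2 on small aliquots of sorted cells. The submitters' processing notes list bcl2fastq 2.20, cutadapt 1.18, STAR 2.5.2b, RSEM 1.3.3 and DESeq2, with the genome build mm10. The deposited values are TPM that the authors estimated per gene with RSEM, which divides reads between similar transcripts, so heavy chain genes are uncertain. TPM holds no depth, so counts could not be modeled. A further 30 per-sample columns matched no labelled sample and stayed out, 6 of them with names like those of the libraries used but reading WT and batch 2.

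TPM was used as deposited. Genes with at least 1 TPM in at least 3 libraries were tested (13002 of the 25916 above 0 in any library). A linear model on log2(TPM + 1) was fitted to all 4 groups with limma 3.58.1 in R 4.3.3 (eBayes with trend, 8 residual degrees of freedom), with 5 contrasts and two-sided tests adjusted by Benjamini-Hochberg over all genes tested. Differences on this scale understate changes of genes at low TPM. Ratios were compared with exact permutation tests. The labels do not say whether libraries of a group came from separate mice. The paper calls them biological triplicates and gives 3 mice per group in a legend. The 9 members, 8 pathway lists and 8 marker lists (141 of 142 names in the table) were written from general knowledge and chosen with earlier results of these data known. Every member is named, and of each pathway list up to 3 called genes per direction and comparison, with others named for description after their values were seen. The fit was tested on simulated data. Coordinates are from GENCODE M21 (GRCm38) and promoter windows from RefSeq (GRCm38.p6). H2-L was not analysed here. Alternatives were pseudocounts of 0.1 and 5, a minimum of 5 TPM, no filter, quantile normalization, median-ratio scaling over 5729 genes, array weights, fits of only the groups compared, a replicate block, the adjusted p alone, and leaving out each library; the ratio was also taken after quantile normalization, chosen after its values were seen.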

Additional observations from a re-analysis of the deposited data

Results flagged for a closer look

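For 3 members the difference between dormant and growing libraries changed with the host in the interaction test of limma. The adjusted p was 0.00508 for B2m, 0.019 for Tap2 and 0.0275 for Tap1, and over the alternatives it reached 0.022, 0.121 and 0.073. B2m was higher in dormant than in growing libraries in KO hosts in 3 of 3 libraries, and the groups overlapped in WT hosts. After quantile normalization the pattern turned round: the B2m difference between states was 0.13 in KO hosts (limma adjusted p 0.506), with overlap, and -0.57 in WT hosts (adjusted p 0.0125), without overlap. Tap2 was lower in dormant than in growing libraries in 3 of 3 libraries in WT hosts and overlapped in KO hosts. Tap1 was lower in dormant libraries in 3 of 3 in KO hosts, and in WT hosts replicates 1 and 2 of dormant were higher and replicate 3 was not. Marker sums of other cell types were highest in dormant KO, detection was lowest in dormant WT, and host and batch cannot be told apart in these 3 values.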

How the results depend on the processing

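Over the alternatives, 854 of 936 member differences kept their sign and their side of the threshold, 18 gained a call, 17 lost one and 47 changed sign; the cause was not tested. Between dormant hosts the number of called members, 1 as reported, became 3 after median-ratio scaling (B2m, H2-T23 and Tap2), 2 after quantile normalization and 3 by the adjusted p alone, and ranged from 1 to 2 when 1 library was left out. Between growing hosts it went from 0 to 1 with array weights. Between WT states it ranged from 1 to 2 with 1 library left out, the 2 being without dormant WT replicate 3. Between KO states it went from 0 to 1 with a pseudocount of 5, a minimum of 5 TPM, median-ratio scaling, only the groups compared or array weights, to 2 by the adjusted p alone, and ranged from 0 to 1 with 1 library left out. For the interaction it went from 2 to 1 with a pseudocount of 5 or quantile normalization and to 0 with array weights, and ranged from 0 to 3 with 1 library left out, with adjusted p of 0.00423 to 0.073 for Tap1 and 0.00221 to 0.121 for Tap2 over all settings.

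Whether the replicate numbers pair the libraries is not known. Deviations from the group means correlated at -0.0147 to 0.0206 over 18 pairs with the same number. Pairs with different numbers ran from -0.0286 to 0.0332. Between KO states every pair with the same number was above 0 (0.0109 to 0.0206) and every other pair below, whereas WT states had both signs. Correlations this small do not show whether libraries were paired. With the replicate block the interaction called 1 member, Tap1 having an adjusted p of 0.0553, and the calls over all genes were 2722, 86, 751, 2116 and 1048 against 2898, 127, 977, 2313 and 1312.

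Signs turned mostly at values near 0. With a pseudocount of 0.1, Nlrc5 became 1.11 between dormant hosts and 1.03 in the interaction, and Erap1 -0.62 between WT states. With a pseudocount of 5, Nlrc5 became -0.022 between growing hosts. Median-ratio scaling gave H2-K1 0.33, Tapbp 0.12 and Nlrc5 0.16 between dormant hosts, H2-K1 0.039 between WT states, Tap2 0.38 between KO states and Nlrc5 0.15 in the interaction. Quantile normalization gave H2-D1 -0.017 and Tapbp 0.039 between dormant hosts, Nlrc5 -0.040 between growing hosts, H2-K1 0.14, H2-D1 0.10 and Nlrc5 0.48 between WT states, and Tap2 0.10 between KO states. Array weights gave H2-D1 -0.0432 between dormant hosts, Nlrc5 -0.0648 between growing hosts and H2-K1 0.019 between WT states. With 1 library left out, the differences between dormant hosts ranged from -0.18 to 0.47 for H2-D1, -0.67 to 1.04 for Nlrc5, -0.38 to 0.048 for H2-K1 and -0.030 to 2.03 for Erap1. Those between growing hosts ranged from -0.51 to 0.55 for Nlrc5 and -0.090 to 0.78 for Erap1. Those between WT states ranged from -0.20 to 0.091 for H2-T23, -0.51 to 1.55 for Erap1, -0.28 to 0.15 for H2-K1 and -0.53 to 0.12 for H2-D1. Tap2 ranged from -0.42 to 0.12 between KO states, and in the interaction Nlrc5 ranged from -0.68 to 1.04 and Erap1 from -0.42 to 1.64.

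Rescaling moved the median of all genes between dormant hosts from 0.17 to 0.50 (median-ratio) or -0.14 (quantile), and the share of called genes that were higher from 57.9% to 74% or 50.1%. Between KO states that share was 46.7%, 69.2% and 56.9%, between WT states 24.6%, 29.1% and 50.6%, and in the interaction 61.2%, 79.1% and 55.4%. Calls over all genes with array weights were 1418, 516, 310, 3586 and 879, and in the fits of only the groups compared 1680, 308, 889 and 3134. Depth is unknown and the study's methods describe small aliquots of sorted cells, so values near 0 cannot be told from failed detection.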
